A study of Homo sapiens with 24 samples.

Results

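A single rotenone dose was compared at both of its exposure times: 50 nM for 24 h and 50 nM for 12 h, both harvested on day 8. The samples were taken by their titles and made up 6 of the 24 arrays of the series, 3 wells per exposure time. All were aggregates of LUHMES cells, a conditionally immortalized line of human mesencephalic precursors that becomes dopaminergic neuron-like, grown in 3D on a shaker and differentiated with tetracycline, cAMP and GDNF. Rotenone in DMSO was added on day 7. A further pair of day 8 groups, each of 3 wells, served as reference, DMSO alone and 100 nM rotenone for 24 h, and the same 4 exposures were also measured on day 15, 7 days after wash-out. RNA was measured on 1-colour Agilent arrays, and a value below is a normalized log2 intensity of a gene, so that a difference of 1 is a doubling. Differences are 24 h minus 12 h unless another contrast is named. The exposure time of the DMSO wells is not given in the labels and no 12 h DMSO group was analysed here, so longer exposure cannot be told apart from time of day, time in medium with vehicle or, if the 12 h exposure began later, the hour of culture at which it started. All samples were of 1 cell line. The p-values rest on the spread that remains over all 24 arrays of the series after the slide is taken out, not on the 6 compared arrays alone. Replicates are called wells here, but the titles do not say whether they came from 1 culture or several. Replicate numbers 1 to 3 were slides 1 to 3, and each group lay at the same place on every slide, so place and group cannot be told apart.

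Rotenone blocks complex I of the mitochondrial respiratory chain, which oxidizes NADH and passes its electrons to ubiquinone. Among metabolic and stress genes, the enzymes of sterol synthesis are switched on together by the SREBP2 factor when sterols in the endoplasmic reticulum fall. The chaperones of the unfolded protein response are induced when proteins misfold in that compartment. Whether blocked respiration acted on either was not tested here. Neurons also set the transcription of ion channels and synaptic proteins by their activity and state. In bulk RNA a change in the amount of RNA per cell and a change in the number of cells of a type cannot be told apart.

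The labelled cell type was checked against its defining markers. TUBB3 and MAP2, cytoskeletal proteins of neurons, and TH, the rate-limiting enzyme of dopamine synthesis, were well above background on all 6 arrays, as were the dopamine transporter SLC6A3 and the decarboxylase DDC. The vesicular transporter SLC18A2 was well above background on 1 of the 3 12 h arrays and 0 of the 3 24 h arrays. DDC was dim, at 4.31 to 4.98 over the 6 arrays. Of 12 dopaminergic neuron markers, 9 were well above background on all 12 h arrays and 8 on all 24 h arrays. All 10 neuron markers were so at both times. The summed signal of the 12 was 1911 to 2607 at 12 h and 2173 to 2798 at 24 h. That of the oligodendrocyte lineage markers was higher, at 5678 to 6178 and 5314 to 7532. Of markers of other cells, GFAP and AQP4 (astrocytes), P2RY12 (microglia), SOX2 (progenitors) and COL3A1 (fibroblasts) were not well above background on any of the 6, but other genes of these lists were. On all 3 arrays of the 12 h group this held for 2 of 7 astrocyte, 2 of 6 microglia, 7 of 8 progenitor, 4 of 7 fibroblast and 4 of 7 oligodendrocyte lineage markers, and the 24 h counts were the same except for 5 fibroblast markers. None of these 6 dopaminergic and neuronal genes passed the test between 12 h and 24 h (smallest adjusted p = 0.28, limma). The 6 arrays correlated at 0.972 to 0.990 with each other over all genes. The share of spots well above background was 72.1%, 59.7% and 53.5% at 12 h on slides 1 to 3 and 68.3%, 56.0% and 51.6% at 24 h, so it was lower at 24 h on each slide; its part in the results was not tested.

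Of 21344 genes, 52 were called between the exposure times, that is more than 1.5-fold different with an adjusted p below 0.05 (limma), which is 0.244% of the genes tested. Of these, 27 (0.126%) were higher after 24 h and 25 (0.117%) were lower. With an unadjusted p below 0.01 in place of the adjusted one the count was 148 (0.693%), and 119 genes (0.558%) had an adjusted p below 0.05 at any fold. All 52 had 1 sign on all 3 slides, which 33.4% of all genes had, and in 49 the 12 h and 24 h arrays did not overlap, which 8.98% of all genes showed. The exceptions were C20orf141, SYT5 and CCDC166, and the last was dim. The 52 were chosen by their difference on these same arrays, so sign and overlap describe them and are no separate support. Against DMSO, 389 genes were called after 12 h (1.82%), 181 higher and 208 lower, and 602 after 24 h (2.82%), 294 higher and 308 lower. From the 75th-percentile-scaled processed signal these splits were 373 and 229 after 12 h and 536 and 349 after 24 h. The calls between the exposure times were few and depended on single arrays: leaving out replicate 1, 2 or 3 of the 12 h group gave 28, 22 and 74 calls, and leaving out those of the 24 h group 42, 24 and 27. In each of these 6 fits ACAT2, C20orf141, CHST8, FABP3, KCND2, KCNE2, KCNMB2, LSS, LYPD1, PCOLCE2, PLEKHB1 and SQOR, 12 genes in all, stayed called. With a limma fit of the 6 arrays alone 0 genes were called and 183 were more than 1.5-fold different at an unadjusted p below 0.01, and with slides 2 and 3 only these counts were 0 and 189.

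Of 24 tested genes of cholesterol synthesis and its regulators, 4 were called higher after 24 h (16.7%, beside 0.126% of all genes) and 0 lower by limma. The sign was positive for 21 and negative for 3 (48.2% of all genes were positive), and 8 had an adjusted p under 0.05 at any fold, beside 0.305% of all genes higher at that threshold. The median difference was 0.41 (0.39, 0.46 and 0.35 within slides 1 to 3), beside -0.01 over all genes. Against DMSO the median was 0.04 after 12 h, 0.41 after 24 h and 0.37 after 24 h of 100 nM. The 100 nM wells were on other arrays, but all these medians share the DMSO arrays and stand side by side only. Under 4 alternative processings the median lay between 0.40 and 0.45.

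LSS, lanosterol synthase, read 9.34, 9.61 and 9.42 on the 12 h arrays and 10.04, 10.39 and 10.17 on the 24 h arrays. DMSO arrays read 9.23, 9.55 and 9.57, so the 12 h arrays were within the range of DMSO or near it and all 24 h arrays were above both. The difference was 0.75 ± 0.10 (SE, adjusted p = 0.0028). FDFT1, squalene synthase, was 12.41, 12.57 and 12.77 after 12 h and 13.02, 13.50 and 13.27 after 24 h, a difference of 0.68 ± 0.09 (adjusted p = 0.0021). STARD4, a sterol carrier, differed by 0.67 ± 0.13 (adjusted p = 0.040). FDPS, DHCR7 and HSD17B7 also passed the adjusted p but not the fold threshold, at 0.58, 0.47 and 0.40. HMGCS1, IDI1, MSMO1, SQLE and CYP51A1 had differences of 0.43 to 0.59 with adjusted p of 0.052 to 0.28. SREBF2, which encodes the factor itself, had -0.23 ± 0.12 (adjusted p = 0.51).

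ACAT2 and ACSS2, not on that list, supply the acetyl units. ACAT2 condenses acetyl-CoA at the start of the mevalonate route and read 11.98, 11.91 and 12.30 after 12 h against 12.88, 13.05 and 12.97 after 24 h. DMSO arrays read 12.26, 12.10 and 12.38, so all 24 h arrays were above DMSO and the difference was 0.90 ± 0.10 (adjusted p = 0.0013). ACSS2, which makes acetyl-CoA from acetate, was 9.26, 9.03 and 9.01 after 12 h and 9.88, 10.01 and 9.57 after 24 h (0.72 ± 0.11, adjusted p = 0.0085). With 100 nM for 24 h they were 0.58 and 0.74 above DMSO. The promoters of 3 of these genes are shown because these genes moved together. Each is the 250 bases before the start site in RefSeq (GRCh38.p14), 5′ to 3′ on the gene's strand, with the CCAAT box (CCAAT, either strand) in capitals. The windows were chr21:46228775-46229024 for LSS (minus strand), chr5:111512536-111512785 for STARD4 (minus strand) and chr20:34874739-34874988 for ACSS2 (plus strand).
LSS: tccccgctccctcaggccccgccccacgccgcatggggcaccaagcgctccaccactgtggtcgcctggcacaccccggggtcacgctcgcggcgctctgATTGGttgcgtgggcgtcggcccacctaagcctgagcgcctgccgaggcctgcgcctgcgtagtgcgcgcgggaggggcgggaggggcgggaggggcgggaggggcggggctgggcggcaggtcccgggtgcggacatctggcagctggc
STARD4: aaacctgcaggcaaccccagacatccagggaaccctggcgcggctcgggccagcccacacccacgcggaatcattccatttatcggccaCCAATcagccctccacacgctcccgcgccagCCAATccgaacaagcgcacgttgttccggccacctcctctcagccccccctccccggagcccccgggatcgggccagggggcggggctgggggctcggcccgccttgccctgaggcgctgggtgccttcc
ACSS2: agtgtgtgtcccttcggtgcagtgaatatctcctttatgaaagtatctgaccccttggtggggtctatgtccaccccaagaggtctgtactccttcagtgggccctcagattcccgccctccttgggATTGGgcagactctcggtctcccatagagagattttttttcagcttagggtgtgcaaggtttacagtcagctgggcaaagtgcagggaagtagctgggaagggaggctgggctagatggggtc
The CCAAT box was present in 33.0% of 27305 promoter windows and in 15 of the 18 windows held for the cholesterol list (83.3%), and in 17 of the 19 windows of the unfolded protein response list (89.5%), whose median was below 0. The sterol regulatory element (TCACNCCAC, either strand) was in 0.875% of all windows and in 1 of the 18, that of SREBF2. Letters in a window are a description and not a bound site.

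**Figure D1:**
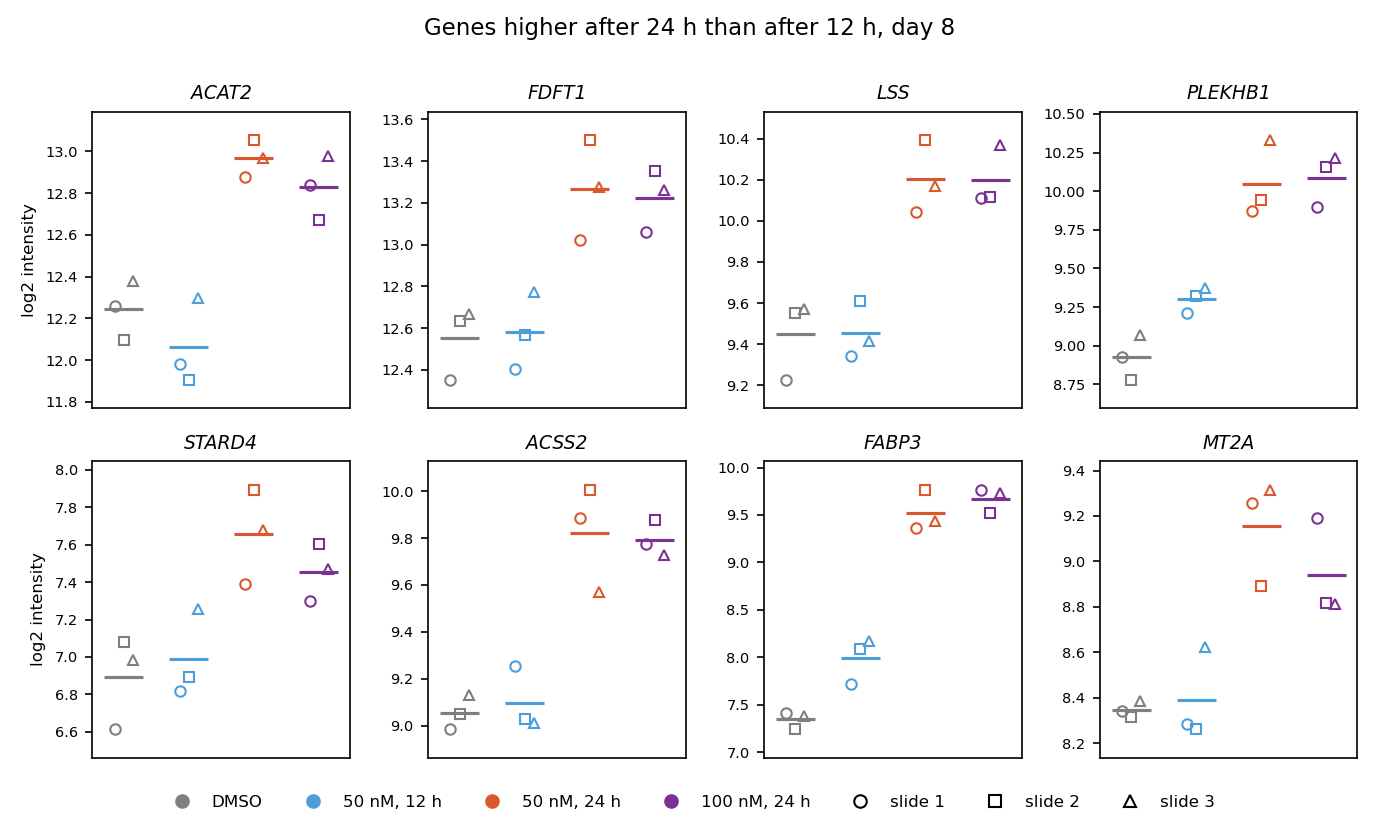
Normalized log2 intensity of 8 genes that were higher after 24 h than after 12 h of 50 nM, for the 4 day 8 groups (colours) on each slide (symbols), with a line at the mean of the 3 arrays; each panel has its own vertical scale. For ACAT2, FDFT1 and LSS the 24 h arrays lie above all 12 h arrays, and the 12 h arrays lie close to DMSO.

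FABP3, a fatty acid binding protein, had the largest difference of the named genes. It read 7.72, 8.09 and 8.17 after 12 h and 9.36, 9.76 and 9.43 after 24 h. DMSO arrays read 7.42, 7.24 and 7.38, so both exposures were above DMSO, 12 h by 0.65 (adjusted p = 0.045) and 24 h by 2.17 (adjusted p = 4.2e-06). The difference was 1.53 ± 0.18, a 2.88-fold change (adjusted p = 0.0013). PLEKHB1, a membrane-associated protein, differed by 0.75 ± 0.10 (adjusted p = 0.0021) and was 0.38 above DMSO after 12 h and 1.12 after 24 h. ADIRF and LINC02308 were likewise called higher against DMSO at 12 h and further at 24 h, so that, with FABP3, 3 of the 27 were called higher than DMSO at 12 h (beside 0.848% of all genes), while 16 of the 27 had a 12 h mean above the DMSO mean. Of the 27, 19 were called higher than DMSO at 24 h (beside 1.38% of all genes), and these comparisons share arrays, so the values stand side by side only. In the 100 nM group, 24 of the 27 were above DMSO, beside a median of -0.02 over all genes, and 16 were called higher (beside 1.46%). The 100 nM and DMSO arrays did not choose the 27. However, the fit uses the same estimate of the spread of a gene in all comparisons, so this count of calls is not independent of the choice.

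Of 11 metallothioneins, small metal-binding proteins, MT2A and MT1E were called higher after 24 h (18.2%, beside 0.126% of all genes). MT2A read 8.29, 8.26 and 8.62 after 12 h and 9.26, 8.89 and 9.32 after 24 h, a difference of 0.76 ± 0.16 (adjusted p = 0.044), and the arrays did not overlap. MT1E differed by 0.70 ± 0.14 (adjusted p = 0.033). The median over 11 measured members was 0.38, with 0.46, 0.07 and 0.47 within slides 1 to 3, and 8 were higher. Against the same DMSO arrays the median was -0.18 at 12 h, 0.01 at 24 h and 0.05 with 100 nM, so the list lay near DMSO at 24 h. MT2A and MT1E stood at 0.81 and 0.52 against DMSO at 24 h. Members of this family share much sequence, so the probes may not separate them. The MT2A promoter (chr16:56608334-56608583, plus strand) is shown with the metal response element (TGCNCNC, either strand) in capitals.
MT2A: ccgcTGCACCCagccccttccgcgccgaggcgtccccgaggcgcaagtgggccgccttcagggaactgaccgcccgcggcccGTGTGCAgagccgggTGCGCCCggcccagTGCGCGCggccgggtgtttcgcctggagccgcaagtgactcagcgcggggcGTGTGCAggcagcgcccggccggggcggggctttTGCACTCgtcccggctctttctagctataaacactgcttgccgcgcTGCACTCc
The element was in all 5 windows held for the list and in 48.4% of all promoter windows.

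The called genes also held S100A4, S100A6 and S100A1, calcium-binding proteins that no fixed list held. S100A4 read 7.05, 7.02 and 7.36 after 12 h and 7.87, 8.08 and 8.19 after 24 h (0.90 ± 0.15, adjusted p = 0.013). S100A6 and S100A1 differed by 0.67 ± 0.10 and 0.74 ± 0.12 (adjusted p = 0.0066 and 0.0088). Against DMSO, S100A4, S100A6 and S100A1 stood at -0.37, -0.33 and -0.41 at 12 h and at 0.53, 0.34 and 0.33 at 24 h. They were called against DMSO at neither time, and with 100 nM they stood at 0.29, 0.29 and -0.04. Of 7 fibroblast markers, 5 were higher after 24 h with a median of 0.37 (0.41, 0.58 and 0.06 within slides 1 to 3) and 0 called, COL3A1 was not above background on any array, and their summed signal was 206 to 291 at 12 h and 277 to 442 at 24 h; its part in the S100 values was not tested. PIR, an iron-binding protein under NRF2, differed by 0.72 ± 0.12 (adjusted p = 0.012). It was the 1 called member of 23 NRF2 targets (4.35%, beside 0.126% of all genes), of which 12 were higher, with a median of 0.04. PTGR1, a reductase of prostaglandins and reactive aldehydes, had 0.66 ± 0.14 and BLVRB, a biliverdin reductase, 0.64 ± 0.13. TMEM256 and the coagulation factor gene F10 were also called, at 0.62 and 0.68.

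A second set lay below DMSO at 12 h and nearer to it at 24 h. EXTL1, a glycosyltransferase of heparan sulphate, read 6.40, 6.50 and 6.25 after 12 h, 7.08, 6.90 and 7.10 after 24 h and 7.38, 7.43 and 7.57 in DMSO. The difference was 0.64 ± 0.12 (adjusted p = 0.024), and the 12 h value minus DMSO was -1.08. MTFR2, a regulator of mitochondrial fission, stood at -0.88 against DMSO after 12 h and at -0.20 after 24 h. It was dim, and well above background on 2 of the 3 12 h arrays. EXTL1 and MTFR2 were the 2 of the 27 that were called lower than DMSO at 12 h (beside 0.975% of all genes). The same 12 h arrays chose the 27, so these values stand side by side only. Between the exposure times MTFR2 kept its call in 6 alternative fits and lost it in 15, and EXTL1 in 11 and 10. HSPA2, an HSP70 chaperone, differed by 0.59 ± 0.12 (adjusted p = 0.043), and kept its call in 8 alternative fits and lost it in 13. Such losses were not particular to these genes. Over all 52 called genes and the alternative fits, calls were kept 668 times and lost 422 times. BLVRB, PTGR1, CPNE1, SYT5 and SYT6 each kept the call in 9 and lost it in 12. Among 21 heat shock proteins 16 were higher with a median of 0.19, close on the 3 slides (0.16, 0.15 and 0.19), and HSPA1B (0.56 ± 0.11, adjusted p = 0.033) stood at -0.93 against DMSO after 12 h and at -0.37 after 24 h. SHMT2, the mitochondrial serine hydroxymethyltransferase, had an adjusted p of 0.043 at 0.43 ± 0.09. Against DMSO it stood at -0.44 at 12 h and -0.01 at 24 h, while PHGDH, the first enzyme of serine synthesis, stood at -0.91 and -1.01 and did not pass the test between the times (-0.10 ± 0.11, adjusted p = 0.85). NDUFA3, a subunit of complex I, had 0.42 ± 0.08 (adjusted p = 0.024), and the median of 37 complex I subunits was 0.06 with 27 higher.

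The genes lower after 24 h held some that stood above DMSO at 12 h and others that were below DMSO at 24 h. Of the 25, 7 were called higher than DMSO at 12 h (beside 0.848% of all genes) and lay near DMSO at 24 h. The 25 were chosen as lower at 24 h on these same arrays, so the values stand side by side only. CHST8, a sulfotransferase of N-acetylgalactosamine, read 12.55, 12.24 and 12.23 after 12 h and 11.49, 11.42 and 11.61 after 24 h, while DMSO read 11.72, 11.58 and 11.59. The difference was -0.83 ± 0.10 (adjusted p = 0.0013). KCNE2, an accessory subunit of potassium channels, read 8.79, 8.79 and 8.83 after 12 h and 7.80, 7.95 and 7.97 after 24 h, with 7.83, 8.15 and 8.09 in DMSO (-0.90 ± 0.13, adjusted p = 0.0039). KCNMB2, the beta subunit of the calcium-activated potassium channel, differed by -0.75 ± 0.11 (adjusted p = 0.0058). SQOR, a mitochondrial enzyme that passes electrons from sulfide to ubiquinone, differed by -0.73 ± 0.11 (adjusted p = 0.0066), and was 0.74 above DMSO at 12 h and 0.01 above at 24 h. NRP1, a receptor for semaphorins, had -0.72 ± 0.13 and CPNE1, a calcium-dependent membrane-binding protein, -0.60 ± 0.10. LINC02210-CRHR1, a readthrough with the CRHR1 receptor gene, had -0.80 ± 0.17, and the probe may not separate it from that gene. In the 100 nM wells these genes lay between -0.07 and 0.47 of DMSO.

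Of the 25, 10 were called lower than DMSO at 24 h (beside 1.44% of all genes). The same 24 h arrays chose the 25, so these values too stand side by side only. LYPD1, a Ly6-type membrane protein, read 5.58, 6.03 and 6.11 after 12 h and 4.52, 5.21 and 5.10 after 24 h (-0.96 ± 0.13, adjusted p = 0.0021). DMSO read 5.87, 6.01 and 6.02, in the range of 12 h. KCND2, an A-type potassium channel of dendrites, read 6.89, 7.53 and 7.68 after 12 h and 6.33, 6.44 and 6.73 after 24 h (-0.87 ± 0.13, adjusted p = 0.0066). It was the 1 called member of 31 voltage-gated channels (3.23%, beside 0.117% of all genes), whose median was -0.02. SYNPR, a synaptic vesicle protein, was 8.76, 8.68 and 8.80 after 12 h and 7.91, 7.99 and 7.96 after 24 h (-0.80 ± 0.12, adjusted p = 0.0072). CTXN3, cortexin, and PCOLCE2, an enhancer of procollagen processing, differed by -0.81 ± 0.15 and -0.73 ± 0.09. NTRK3, the receptor of neurotrophin 3, SYT6, a synaptotagmin, and TRAIP, a ubiquitin ligase, were below DMSO at both times and lower at 24 h, with differences of -0.71 to -0.62 against 12 h. In the 100 nM wells 8 of the 25 genes were called lower than DMSO (beside 1.95%). The fit uses the same estimate of the spread of a gene in all comparisons, so this count is not independent of the choice of the 25. Of the 25 lower genes 8 were called against DMSO at neither time, among them CCDC166, GPC5, HSPA5, LRP1B, OVGP1, SAMD11 and SNRNP70. Of 27 genes of synaptic vesicles and release SYT5 was called (-0.65 ± 0.13), which is 3.7% beside 0.117% of all genes called lower, and the median was -0.02. Of 10 neuron markers 8 were lower, with a median of -0.13 and 0 called.

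**Figure D2:**
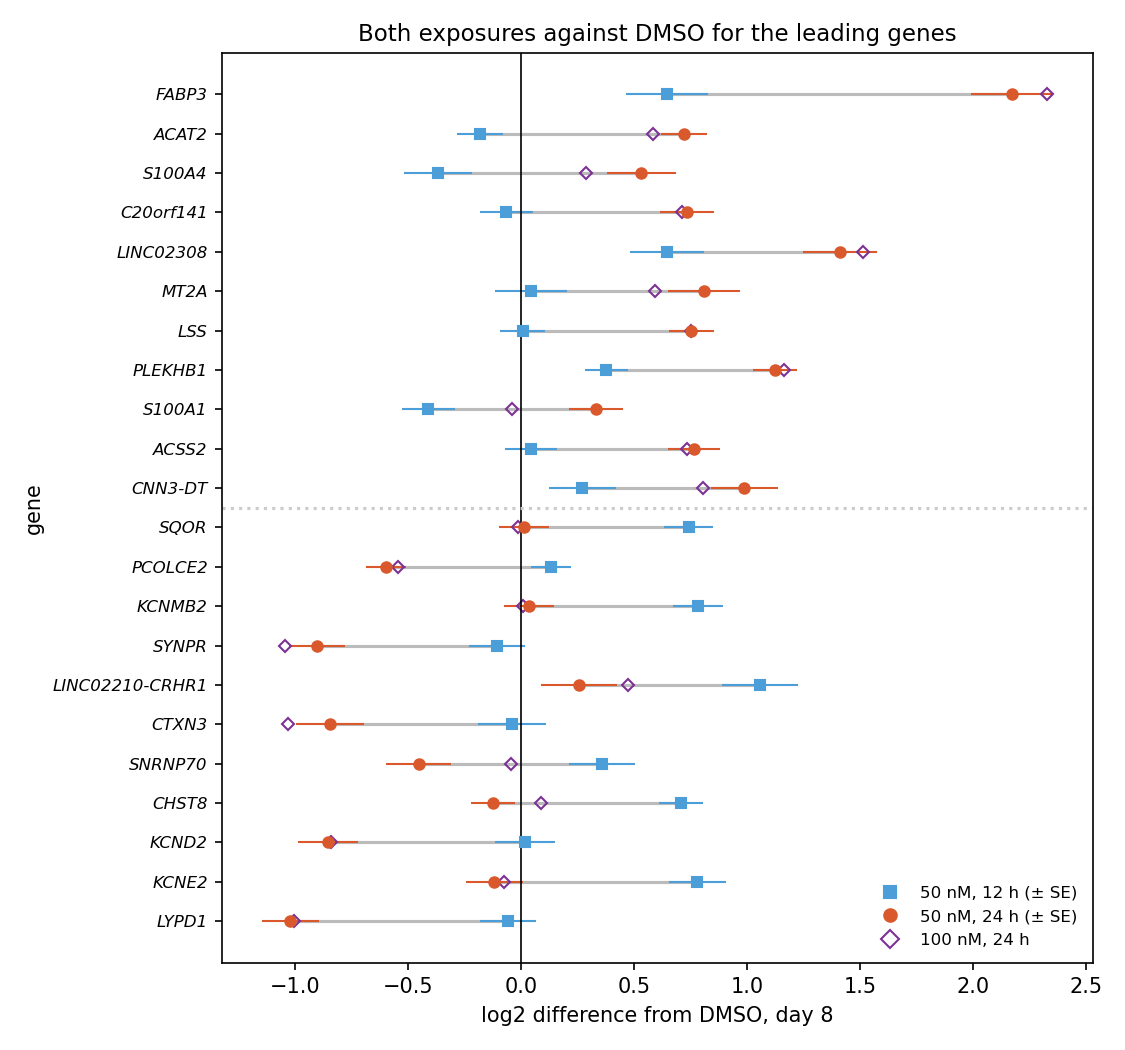
Difference from DMSO on day 8 (log2) of 50 nM for 12 h (squares) and 24 h (circles), both ± SE, and of 100 nM for 24 h (diamonds), for 11 higher and 11 lower genes among those with the largest difference. Lines join both times of 1 gene. KCNE2, CHST8, KCNMB2 and SQOR are above DMSO at 12 h and near 0 at 24 h, and LYPD1, KCND2, SYNPR and CTXN3 are near 0 at 12 h and below DMSO at 24 h.

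**Figure D3:**
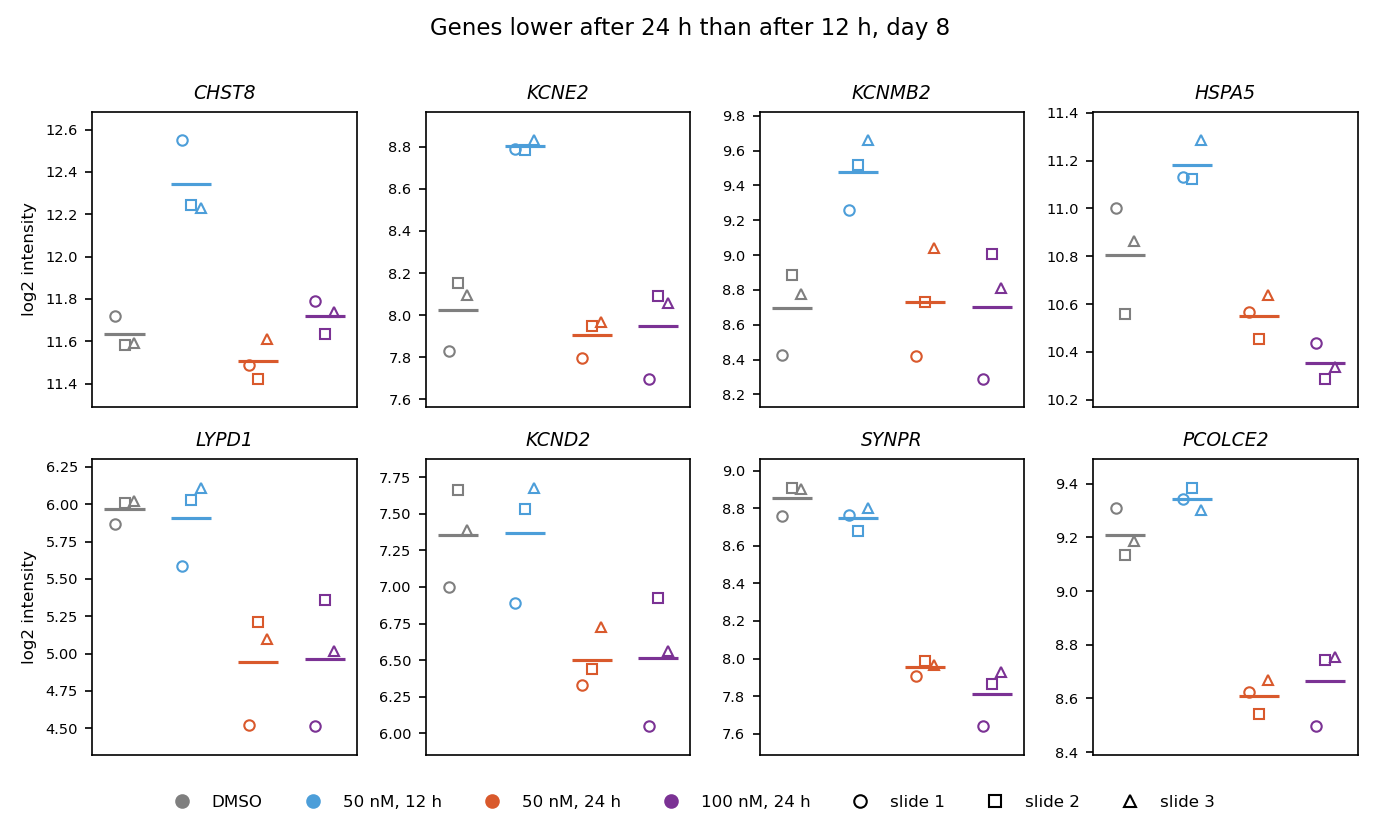
Normalized log2 intensity of 8 genes that were lower after 24 h than after 12 h of 50 nM, for the 4 day 8 groups (colours) on each slide (symbols), with a line at the mean of the 3 arrays. The top row has genes above DMSO at 12 h, the bottom row genes near DMSO at 12 h.

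Of 19 genes of the unfolded protein response, HSPA5 was called lower at 24 h (beside 0.117% of all genes). HSPA5, the main chaperone of that compartment, read 11.13, 11.12 and 11.29 after 12 h and 10.57, 10.45 and 10.64 after 24 h. The DMSO arrays averaged 10.81 ± 0.23 (SD, n = 3), and the 12 h arrays lay above all DMSO arrays. The difference was -0.63 ± 0.09 (adjusted p = 0.0029). SDF2L1, a subunit of its complex, was the 1 other with an adjusted p under 0.05 (-0.49 ± 0.09, adjusted p = 0.030). The sign was negative for 17 of the 19 genes, most of which did not pass the test, and the median was -0.19, with -0.26, -0.20 and -0.26 within slides 1 to 3. HSP90B1, DNAJC3, PDIA6, HYOU1 and MANF had differences of -0.38 to -0.30 that did not pass the test. Against the same DMSO arrays the median was 0.13 at 12 h, -0.11 at 24 h and -0.22 with 100 nM. Under 4 alternative processings it lay between -0.21 and -0.16. The promoter of HSPA5 (chr9:125241344-125241593, minus strand) is shown with the ER stress response element (CCAAT followed after 9 bases by CCACG, either strand) in capitals, which holds a CCAAT box.
HSPA5: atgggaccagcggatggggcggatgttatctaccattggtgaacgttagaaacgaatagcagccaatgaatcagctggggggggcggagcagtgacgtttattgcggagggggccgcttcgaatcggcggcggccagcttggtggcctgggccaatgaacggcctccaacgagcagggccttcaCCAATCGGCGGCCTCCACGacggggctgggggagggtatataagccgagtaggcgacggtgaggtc
The element was in 5 of the 19 windows of the list (26.3%), those of CALR, CRELD2, HSP90B1, HSPA5 and XBP1, and in 0.0806% of all promoter windows.

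**Figure D4:**
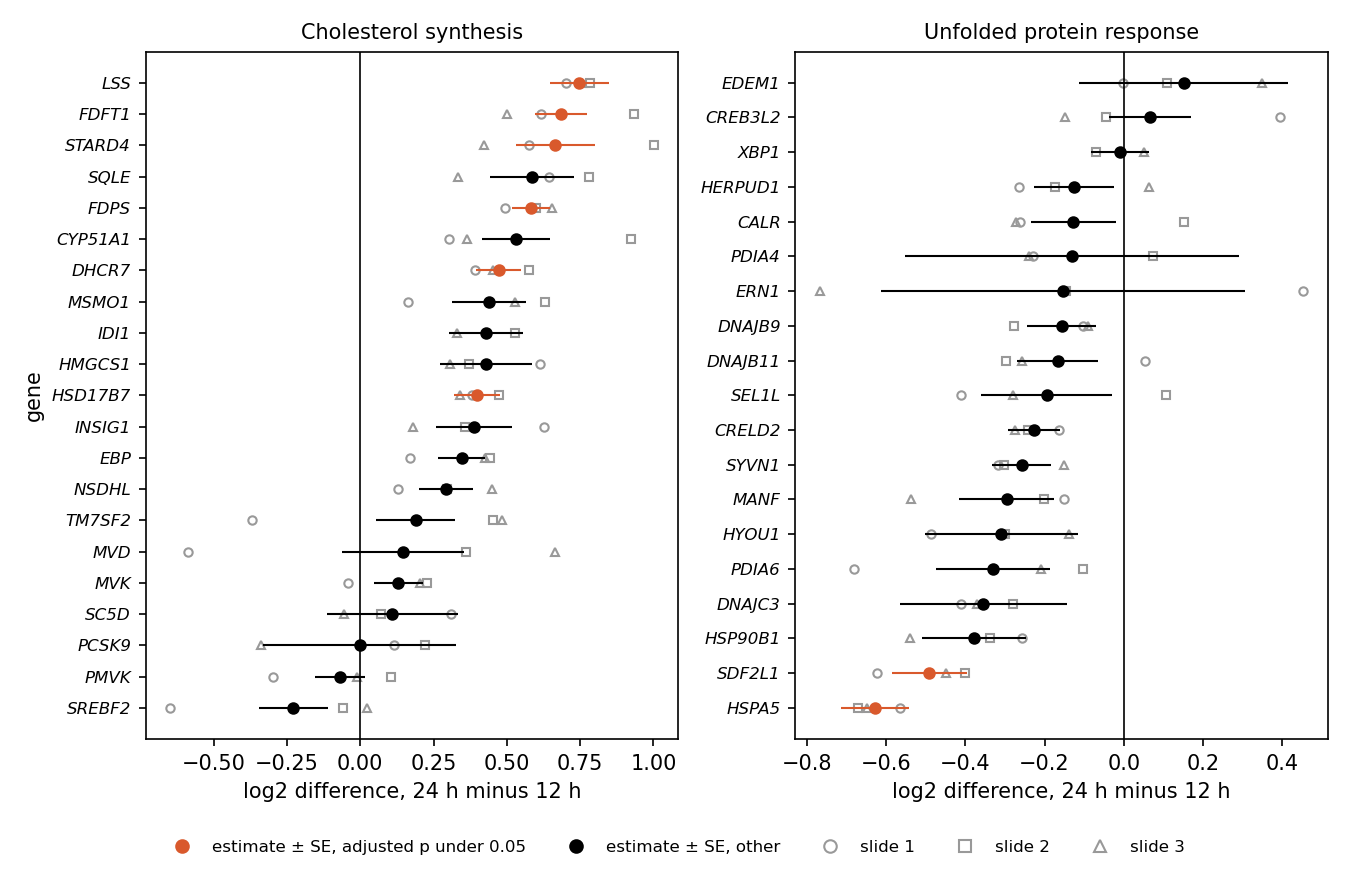
Log2 difference of 24 h minus 12 h for genes of the cholesterol synthesis and unfolded protein response lists (circles ± SE, orange where the adjusted p is under 0.05) with the 3 within-slide differences (grey symbols). Of the 21 cholesterol genes drawn 18 lie above 0, and of 19 unfolded protein response genes 17 lie below 0.

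Of the 10 genes with the largest changes at 100 nM against DMSO (3.41% of all genes were called there), FABP3 was called between 12 h and 24 h of 50 nM (beside 0.244% of all genes). All but TNC were called at 12 h of 50 nM (beside 1.82%) against the same DMSO arrays, so those values stand side by side only. TXNIP, an inhibitor of thioredoxin, read 12.61, 12.38 and 12.15 in DMSO, 9.89, 9.68 and 9.70 after 12 h and 10.06, 10.04 and 10.07 after 24 h, a difference of 0.30 ± 0.14 (adjusted p = 0.45) beside -2.62 against DMSO at 12 h. ARRDC4, an arrestin of the same regulator, stood at -2.03 against DMSO at 12 h and -1.70 at 24 h. BDKRB2, a bradykinin receptor, was 1.64 and 1.88 above. TNC, a matrix glycoprotein, had 0.98 against DMSO at 12 h and more at 24 h, a difference of 0.52 ± 0.30 that did not pass the test. SCML4 stood at -0.98 against DMSO at 12 h and -1.68 at 24 h, a difference of -0.71 ± 0.19 (adjusted p = 0.11). Among the 311 genes called higher at 100 nM, 205 were higher at 24 h than at 12 h of 50 nM (48.2% of all genes were), 16 were called higher (beside 0.126%) and the median was 0.16. Among the 417 called lower, 287 were lower, 8 were called lower (beside 0.117%) and 1 higher, and the median was -0.12. These lists rest on other arrays, but the fit gives each gene 1 estimate of the spread for all comparisons, so the counts of called members are not independent of the choice of the lists.

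Of 31 gene lists 24 had no called member, beside 0.244% of all genes called. Cell cycle genes were higher in 31 of 39 with a median of 0.20, but 0.22, 0.49 and -0.03 within slides 1 to 3. Notch and proneural genes were higher in 24 of 32 with a median of 0.21. CHAC1 led the integrated stress response with 0.42 ± 0.11 (adjusted p = 0.12), and 19 of its 30 genes were higher. PER1, of the circadian clock, had -0.44 ± 0.11 (adjusted p = 0.10), and 0 of 21 clock genes were called. Of the genes called higher on day 15 than day 8 in DMSO (5.96% of all genes), 752 of 1273 were lower at 24 h than at 12 h (median -0.06), and of those called lower on day 15 (6.26%), 772 of 1337 were higher (median 0.04).

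**Figure D5:**
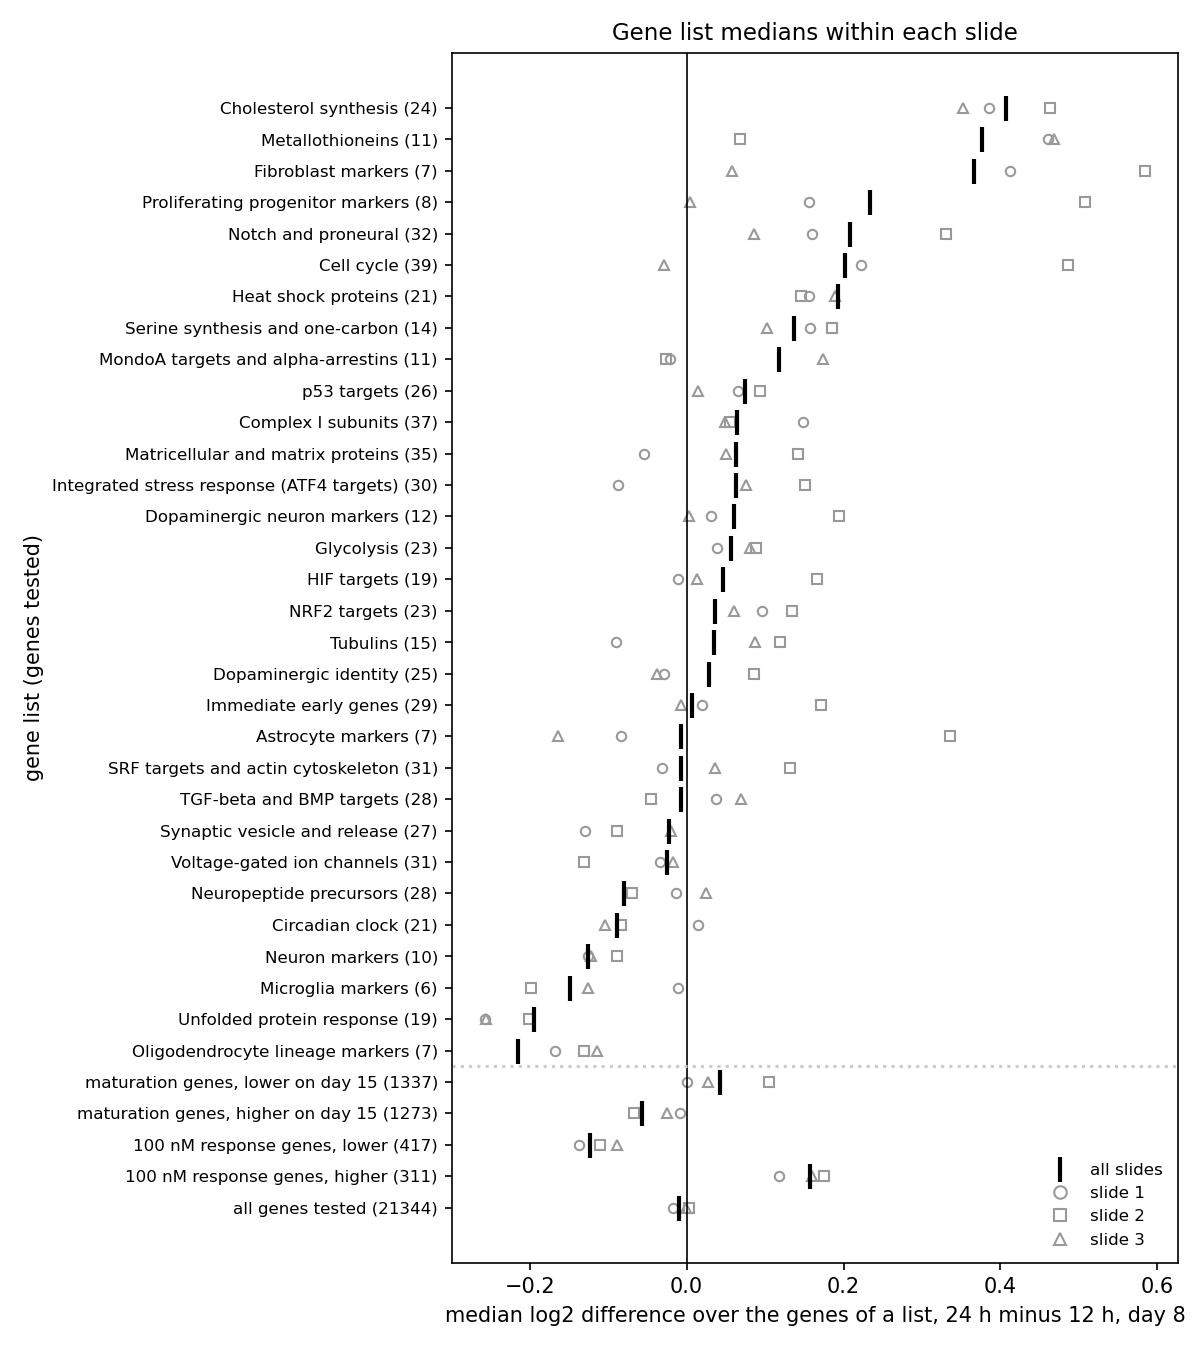
Median log2 difference of 24 h minus 12 h over the genes of each list (bar) and within slides 1 to 3 (symbols), with the genes tested in brackets. The median over all slides is 0.41 for cholesterol synthesis and 0.38 for metallothioneins, which lie higher than cholesterol synthesis within slides 1 and 3, and the unfolded protein response is below 0 on all slides.

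On day 15, 7 days after wash-out, 0 genes (0%) were called between 24 h and 12 h of 50 nM (limma). Of 21344 genes 815 had an unadjusted p under 0.05, a share below 0.05 itself, beside 2375 genes on day 8. The smallest adjusted p was 0.080. Of the 27 genes higher at 24 h on day 8, 11 had the same sign on day 15 and the median was -0.05. Of the 25 lower genes 14 had the same sign, with a median of -0.03. For 3 genes the difference between the exposure times itself differed between the days (0.0141% of all genes), as given in the closing section.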

How the data were processed

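RNA of 24 wells (8 groups, 3 wells each) had been hybridised to 1-colour arrays, 8 per slide on 3 slides. The authors' scanner files, as deposited, hold spot intensity per array from Agilent Feature Extraction (11.5.1.1 on slides 1 and 3, and 12.0.0.7 on slide 2 per the file headers). The authors also deposited a table of normalized log2 values of 21733 probes, whose scale was checked against the scanner files (correlation 0.984 to 0.989 over genes, column medians 6.42 to 6.64) and which served as an alternative. Per the study's methods, some arrays, not named there, were processed at another time with a different wash and corrected with ComBat. The scan days in the file headers set slide 1 apart from the other slides. Here the median signal was corrected by normexp with its local background (offset 0), quantile normalized over 24 arrays and set to log2. Control spots and 6825 flagged spots were left out. Probes were kept if brighter on at least 3 arrays than 1.1 times the level that 95 percent of the negative controls stayed under, probes of 1 gene were averaged, and 21344 genes remained. Genes were named through RefSeq accessions only. Of 48705 probes that passed the filter 29563 had a match, and the others were left out.

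Groups came from the sample titles. All arrays entered 1 limma fit (limma 3.58.1, R 4.3.3) with a mean per group and the slide as a fixed block, with Benjamini-Hochberg adjustment over all genes, two-sided. A gene was called at a fold of more than 1.5 and an adjusted p below 0.05. The replicate number in the titles is the slide. Deviations from group means correlated at 0.17 or more in each of 84 pairs of samples with 1 number (median 0.46). The median over 168 pairs with different numbers was -0.35, but deviations cancel out within a group, which pushes these values down. Number and slide are the same, so the correlations cannot tell pairing of the samples from a slide effect. The slide was kept as a block. Named genes were the 12 higher and 12 lower called genes with the largest difference, 1 sign on all slides and signal well above background on all arrays of 1 group, up to 5 called members of each list or else the member with the smallest p, and the 5 higher and 5 lower genes with the largest change at 100 nM. Values of some genes that the rule or the lists hold are not reported here. Other genes named were chosen after their values were seen. The comparison, members and lists were chosen with earlier results of these data known. Promoter sequences were those of RefSeq (GRCh38.p14). The fit was tested on simulated data. The number of arrays limits the precision. Alternatives covered the block, ComBat, the background offset, the signal column, scaling, filters, probe choice, the arrays in the fit and leaving out each array in turn. Figures were drawn with matplotlib 3.10.9.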

Additional observations from a re-analysis of the deposited data

Results flagged for a closer look

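For 3 genes the log2 difference of 24 h minus 12 h of 50 nM differed between day 8 and day 15 (interaction in the limma fit, 3 wells per group). ACAT2 had 0.90 on day 8 and -0.10 on day 15, a difference of 1.01 ± 0.14 (SE, adjusted p = 0.041). On day 15 its 12 h arrays read 12.58, 12.26 and 12.57 and its 24 h arrays 12.48, 12.21 and 12.42. CHST8 had -0.83 on day 8 and 0.11 on day 15, a difference of -0.95 ± 0.14 (adjusted p = 0.041). FABP3 had 1.53 on day 8 and -0.12 on day 15, a difference of 1.65 ± 0.26 (adjusted p = 0.041), and its day 15 arrays at 24 h read 6.37, 7.39 and 7.29 beside 7.05, 7.22 and 7.17 at 12 h. LY6H, a Ly6-type membrane protein named for this difference only, had -0.51 on day 8 and 0.07 on day 15, a difference of -0.58 ± 0.09 (adjusted p = 0.041) that lay under the fold threshold. The number of genes past both thresholds ranged from 0 to 41 when 1 of the 12 arrays was left out. It was 0 in 9 of these 12 fits, 3 without replicate 1 of either 24 h group, and 41 without replicate 3 of the day 8 12 h group.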

How the results depend on the processing

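All 52 genes called between 24 h and 12 h on day 8 kept their direction in every alternative that tested them (50 of them are in the deposited table). The alternatives re-use arrays on which the 52 were chosen, so the kept direction is no separate support. The count of calls did not hold. It was 0 with slides 2 and 3 only or only the arrays of the compared groups, 4 with no replicate block and no batch correction, 10 with only the 12 day 8 arrays, 34 with a normexp offset of 50 and 93 from the processed signal. Leaving out 1 array gave 22 to 74 calls. ComBat gave 48 calls (45 of them shared), the slide as a random replicate block 49 (46 shared), the deposited values 49 (44 shared) and other filters or scalings 52 to 68. Fits chosen after seeing the data gave 63 without replicate 3 of day 15 100 nM, whose residual SD was the highest, and 44 without replicate 1 of day 15 DMSO, whose scan name does not name DMSO. At an unadjusted p below 0.01 the 148 became 84 with no replicate block and no batch correction (151 with ComBat and no replicate block), 40 with the offset of 50 and 148 to 273 without 1 array. Calls against DMSO at 24 h (602) became 332 with no replicate block and no batch correction (595 with ComBat), 401 on slides 2 and 3, 330 with the offset and 0 with only the compared arrays, and those at 12 h (389) became 170 (372 with ComBat), 215, 202 and 0, and 602 from the processed signal. Fits of the compared arrays have few residual degrees of freedom by construction. The 0 calls on day 15 became 1 with the random replicate block and 1 in the deposited values. The 3 differences between days became 11 with ComBat (no replicate block), 0 with no replicate block and no batch correction, 0 on slides 2 and 3, 0 with only the compared arrays, 27 with the offset, 11 from the processed signal, 11 with the 75th percentile, 6 with the brightest probe and 0 to 41 without 1 array. The medians of genes higher and lower at 100 nM became 0.12 and -0.072 with the offset, and that of genes higher on day 15 became -0.015 with the 75th percentile. For these changes the cause was not tested. Normexp on the mean signal was not run, since the files used here hold no mean signal column.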
